A study of Rattus norvegicus with 6 samples.

Results

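Transcripts of genes that restrain the growth kinase complex mTORC1, or that report nutrients to it at the lysosome, were examined in INS-1E, an insulin-secreting cell line from a rat insulinoma that serves as a beta cell model. The 10 genes were chosen by name: Sesn1, Sesn2, Sesn3, Ddit4, Flcn, Fnip1, Fnip2, Rragc, Rragd and Deptor. Rows carrying these names were found for 9 of the 10 among the 19289 features of the deposited table, and the expression of Fnip1 was not analysed here. All 9 had a mean of at least 1 FPKM (fragments scaled to transcript length and library size) over the 6 libraries, so all entered the test. The libraries came from 3 untreated samples and 3 samples kept with uric acid for 24 hours, and the question put by the labels is how the transcriptome differs in the presence of uric acid. The labels used here give no uric acid concentration and no vehicle. They do not say whether the replicates were separate cultures, so every p-value here reflects only how far these libraries spread, which may be technical. All samples are of the same tumour-derived line, with no other genotype or agent named.

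mTORC1 drives protein synthesis and growth when amino acids and growth factors are present, and it is switched on at the lysosomal surface. Amino acids act through the Rag GTPases, which work as pairs of RagA or RagB with RagC or RagD and bring mTORC1 to the lysosome, while growth factors act through the small GTPase Rheb. Sestrins hold back GATOR2 and so free GATOR1, which inactivates RagA and RagB. Ddit4, also called REDD1, acts on Rheb through the TSC complex, and Deptor binds the kinase itself. Folliculin, the product of Flcn, works with Fnip1 or Fnip2 on RagC and RagD. The word brake therefore covers the sestrins, Ddit4 and Deptor, whereas folliculin, RagC and RagD serve recruitment at the lysosome and the control of the transcription factors TFEB and TFE3.

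Summed estimated counts ranged from 47858248 to 59092982 in the untreated and from 41191819 to 48875962 in the uric acid libraries. The estimated counts of the 9 genes lay between 319 and 20231 per library. Of 14 beta cell markers 13 were listed and each had a mean of at least 1 FPKM, and their summed level was 75178 to 89091 FPKM in the untreated and 73868 to 86142 FPKM in the uric acid libraries, led by Ins1. Duct markers (6 of 7 listed, led by Krt7) summed to 191 to 194 FPKM untreated and 172 to 185 FPKM with uric acid, and endothelial markers (4 of 6, led by Esam) to 10.1 to 12.1 and 12.3 to 15.9 FPKM. The groups did not overlap in either sum. Only 2 of the listed duct markers and 1 of the listed endothelial markers had a mean of at least 1 FPKM, so each sum rested mainly on these. Single markers passed the test in 2 lists, the duct marker Sox9 (log2 fold change -1.07 ± 0.17, edgeR adjusted p = 0.00828) and the beta cell marker Mafa (-0.46 ± 0.08, 0.0129), named after their values were seen. The part of these cell types in the results was not tested. Alpha cell markers (3 of 6) summed to 17 to 19 FPKM in all libraries, and delta and PP cell markers (1 of 5) to at most 0.227 FPKM. Listed markers of acinar (3 of 9), fibroblast and stellate (6 of 8) and immune cells (6 of 8) each summed to at most 2.55 FPKM in any library. The groups were compared by edgeR's quasi-likelihood test over 12460 features, with Benjamini-Hochberg adjustment over all of them and a threshold of 0.05 (two-sided). In bulk RNA, fewer cells expressing a gene and less of its RNA per cell cannot be told apart.

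Promoter sequence from RefSeq (build GRCr8) was held for 7 of the 10 genes: Ddit4, Flcn, Fnip1, Fnip2, Sesn1, Sesn2 and Sesn3. The 250 bases before the start of Sesn2 and of Ddit4 are shown because these were the pair of mTORC1 brakes that passed the test and because their listed starts are the outer ends of the genes. The Sesn2 stretch is chr5:150005256-150005505 and the Ddit4 stretch chr20:28437038-28437287, both on the minus strand and written 5′ to 3′. Capitals mark ACGTG, the core of the element read by hypoxia-inducible factors.
Sesn2: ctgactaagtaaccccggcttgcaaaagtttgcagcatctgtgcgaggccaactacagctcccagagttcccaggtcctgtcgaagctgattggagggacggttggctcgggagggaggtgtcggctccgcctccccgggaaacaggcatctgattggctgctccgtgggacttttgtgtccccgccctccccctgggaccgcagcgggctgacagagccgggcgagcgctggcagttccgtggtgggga
Ddit4: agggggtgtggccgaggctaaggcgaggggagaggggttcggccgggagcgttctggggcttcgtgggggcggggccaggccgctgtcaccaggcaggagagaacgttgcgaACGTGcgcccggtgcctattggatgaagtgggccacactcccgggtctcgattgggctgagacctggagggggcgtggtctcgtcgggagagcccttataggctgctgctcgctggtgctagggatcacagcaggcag
The Ddit4 stretch held ACGTG 138 bases before the start, and the Sesn2 stretch held none of the searched motifs. On both strands, ACGTG was found in 16.6% of 33465 promoter stretches of the same length and, of the 7 genes, in Ddit4 and Fnip1. The core read by ATF4 with C/EBP factors, TGATGNAA, stood in 3.4% of all stretches and in 0 of the 7. The forkhead element GTAAACA stood in 3.22% and in 0 of the 7. The core of the lysosomal CLEAR element, TCACGTGA, stood in 0.657% and in 0 of the 7. The E-box CACGTG, which lies inside that core and itself holds ACGTG, stood in 5.59% and among the 7 in Fnip1, 85 bases before its start. The windows are short, and the listed starts of the other 5 genes lie 32 (Fnip1) to 71801 bases (Sesn1) inside their annotated genes, so a match or its lack describes these letters alone. Guanine and cytosine made up 64% of the Sesn2, 67.6% of the Ddit4 and 48.4% of the Flcn stretch, against a median of 51.2% over all stretches.

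Flcn, Ddit4 and Sesn2 had the largest increases with uric acid, at 2.48, 2.14 and 1.75 times the untreated level. Rragc and Rragd rose by about the same factor as each other, 1.23 and 1.27 times. Sesn1, Sesn3, Fnip2 and Deptor did not pass the threshold. In all, 5 of the 9 genes were called higher, where 4.99% of all tested features were called higher, and 0 were called lower, where 2.99% were. Libraries of the groups did not overlap for 7 of the 9, 6 higher and 1 lower, where 31% of all tested features did not overlap (16.8% higher and 14.2% lower). The median log2 fold change was 0.34 over the 9 genes and 0.00 over all tested features. The genes were proposed with results of this contrast in view, so these counts and the adjusted p-values describe them and support nothing.

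**Figure D1:**
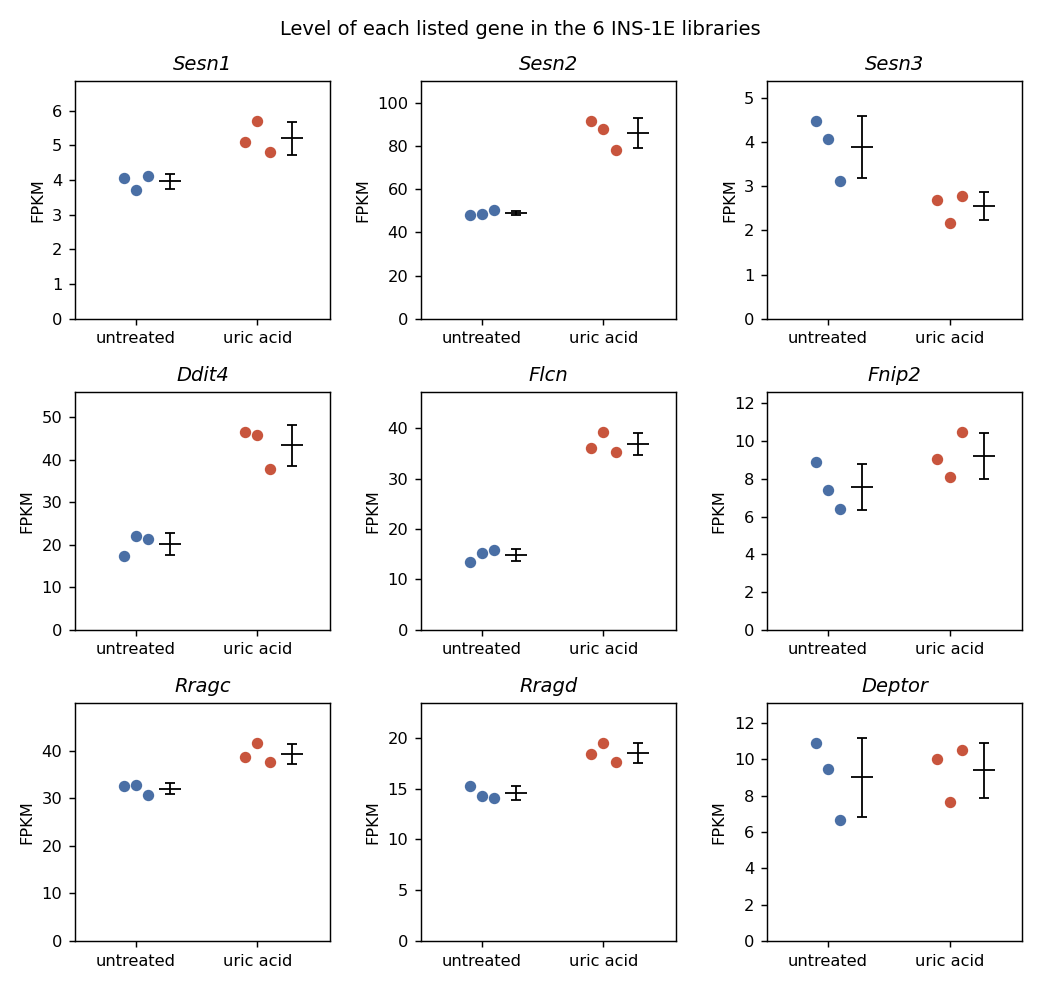
Level of each of the 9 listed genes in FPKM (vertical axes, each from 0) in the 3 untreated (blue) and 3 uric acid (red) libraries; points are libraries in replicate order, bars are the mean ± SD. The groups are apart in every panel but those of Fnip2 and Deptor, and Sesn3 is the one gene whose uric acid libraries lie below the untreated.

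Levels per length placed the genes in a similar order in both groups. In untreated cells Sesn2 was highest at 49 ± 1.06 FPKM (mean ± SD, n = 3), followed by Rragc at 31.9 ± 1.19 and Ddit4 at 20.3 ± 2.58 FPKM. Flcn at 14.8 ± 1.19 and Rragd at 14.6 ± 0.599 FPKM overlapped each other. So did Deptor at 9 ± 2.15 and Fnip2 at 7.58 ± 1.24 FPKM, and at the low end Sesn1 at 3.97 ± 0.213 and Sesn3 at 3.89 ± 0.699 FPKM. With uric acid Sesn2 stayed highest at 86 ± 7.07 FPKM. Ddit4 at 43.5 ± 4.82, Rragc at 39.3 ± 2.06 and Flcn at 36.8 ± 2.12 FPKM then had overlapping libraries, so that Flcn, which had stood beside Rragd, stood beside Rragc. Rragd was at 18.5 ± 0.972, Deptor at 9.41 ± 1.53 and Fnip2 at 9.21 ± 1.22 FPKM, the last pair again overlapping. Sesn1 at 5.2 ± 0.467 and Sesn3 at 2.55 ± 0.324 FPKM were no longer mixed. By mean level over the 6 libraries Sesn2 ranked 1058 and Sesn3 10198 among the 12460 tested features.

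Of the 3 sestrins, Sesn2 rose, and Sesn1 and Sesn3 did not pass the test. Sesn2, the stress-induced leucine sensor, stood at 48.1, 48.7 and 50.2 FPKM in the untreated libraries and at 91.8, 88.1 and 78.1 FPKM with uric acid. The untreated libraries were within a narrow band, and the lowest uric acid library was 27.9 FPKM above the highest of them. Its log2 fold change was 0.81 ± 0.07 (SE; edgeR adjusted p = 0.000519). Sesn1, the sestrin known as a p53 target, stood at 4.07, 3.72 and 4.11 FPKM and then at 5.08, 5.71 and 4.8 FPKM. Its groups did not overlap, with a gap of 0.684 FPKM, but its log2 fold change of 0.39 ± 0.11 missed the threshold (edgeR adjusted p = 0.0676; 0.0199 with DESeq2, which called 14.7% of the features it tested). Sesn3, a sestrin controlled by FOXO factors in other tissues, was lower in each uric acid library than in any untreated one. Its values were 4.49, 4.07 and 3.12 FPKM untreated and 2.69, 2.18 and 2.78 FPKM with uric acid, a gap of 0.342 FPKM. The log2 fold change was -0.61 ± 0.16 (edgeR adjusted p = 0.0535), and it passed with upper quartile scaling (0.0483), with DESeq2 (0.00743) and without untreated library 3 (0.044). Sesn3 had 319 to 463 estimated counts in the uric acid libraries, the fewest of the 9 genes.

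Sesn2 held most of the sestrin transcript in every library. Its share of the summed FPKM of the 3 sestrins was 84.9, 86.2 and 87.4% untreated and 92.2, 91.8 and 91.2% with uric acid, and the groups did not overlap. The share of Sesn3 was 6.85 ± 1.28% untreated and 2.74 ± 0.49% with uric acid (mean ± SD, n = 3), and that of Sesn1 was 6.98 ± 0.337% and 5.55 ± 0.424%. Sesn1 thus held a smaller share while its own level was higher, of a total that went from 56.9 ± 0.476 to 93.7 ± 7.2 FPKM. These shares were not tested, since the genes were chosen on this contrast. Sesn1 (ENSRNOG00000000302) lies on chromosome 20 from 46667121 to 46758305, Sesn2 (ENSRNOG00000042785) on chromosome 5 from 150684133 to 150704117, and Sesn3 (ENSRNOG00000008173) on chromosome 8 from 12823155 to 12872705. The sources used here do not give the genome build of these and the following positions.

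**Figure D2:**
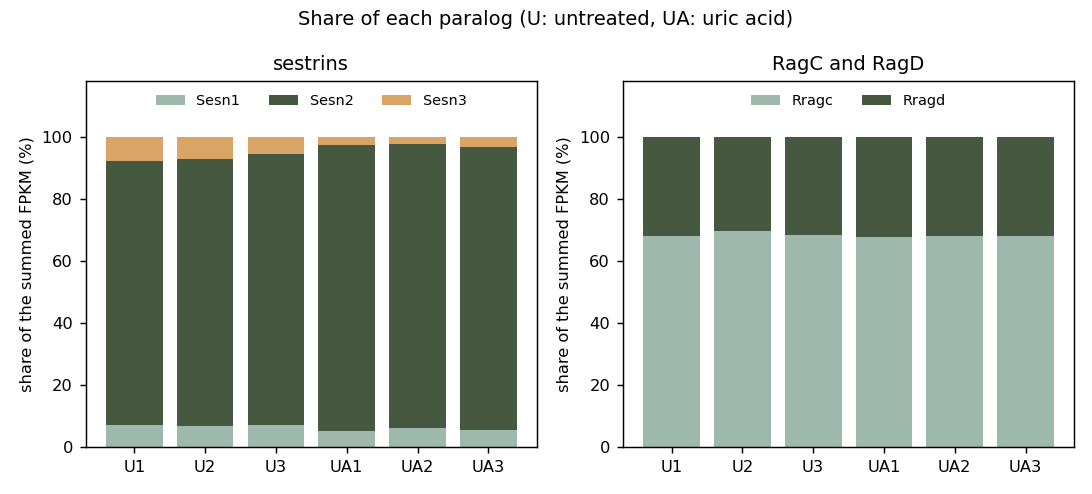
Share of the summed FPKM (vertical axis, percent) held by each sestrin (left) and by Rragc and Rragd (right) in each untreated (U1 to U3) and uric acid (UA1 to UA3) library. Sesn2 goes from 84.9 to 87.4% in the untreated to 91.2 to 92.2% in the uric acid libraries, while Rragc holds 67.8 to 69.6% in all 6.

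Of the other brakes, Ddit4 rose and Deptor did not pass the test. Ddit4, an mTORC1 inhibitor induced by hypoxia, glucocorticoids and amino acid or energy stress, stood at 17.3, 22.0 and 21.4 FPKM untreated and at 46.6, 45.9 and 37.9 FPKM with uric acid. Uric acid library 3 was the lowest of its group and still 15.9 FPKM above the highest untreated library. The log2 fold change was 1.10 ± 0.12 (edgeR adjusted p = 0.00125), the 79th largest increase among the 12460 tested features. Deptor stood at 10.9, 9.45 and 6.66 FPKM untreated and at 10, 7.67 and 10.5 FPKM with uric acid. Its libraries overlapped and varied widely within each group, and its log2 fold change was 0.06 ± 0.19 (edgeR adjusted p = 0.864). Ddit4 (ENSRNOG00000057078) lies on chromosome 20 from 29509289 to 29511382 and Deptor (ENSRNOG00000004328) on chromosome 7 from 94795214 to 94995809.

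Flcn had the largest change of the 9 genes. It encodes folliculin, a tumour suppressor that activates the GTPase function of RagC and RagD when amino acids return. The values were 13.5, 15.3 and 15.8 FPKM untreated and 36.0, 39.3 and 35.3 FPKM with uric acid. Both groups were tight, and the gap between them, 19.5 FPKM, was wider than the whole untreated level. The log2 fold change was 1.31 ± 0.08 (edgeR adjusted p = 9.99e-05), ranking 51 among the increases of all tested features. Fnip2, a partner that folliculin needs for this activity, stood at 8.88, 7.43 and 6.42 FPKM untreated and at 9.06, 8.08 and 10.5 FPKM with uric acid. Its groups overlapped, since untreated library 1 was above uric acid library 2, and its log2 fold change was 0.28 ± 0.13 (edgeR adjusted p = 0.214). Flcn (ENSRNOG00000003302) lies on chromosome 10 from 46153188 to 46172309 and Fnip2 (ENSRNOG00000027833) on chromosome 2 from 178225915 to 178334900. Fnip2 was the one gene of the 9 whose interval overlapped another listed feature, LOC499643 on the other strand, which reached at most 0.0561 FPKM.

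Rragc and Rragd, the genes of RagC and RagD on which folliculin acts, rose modestly. Rragc stood at 32.5, 32.7 and 30.6 FPKM untreated and at 38.6, 41.6 and 37.6 FPKM with uric acid. Its groups did not overlap, and the log2 fold change was 0.30 ± 0.07 (edgeR adjusted p = 0.0309). Rragd stood at 15.3, 14.3 and 14.1 FPKM and then at 18.4, 19.5 and 17.6 FPKM, also without overlap (0.34 ± 0.09, edgeR adjusted p = 0.0482). Both calls depended on which libraries were used. Leaving out untreated library 1, 2 or 3 gave Rragc an adjusted p of 0.0834, 0.117 or 0.0921, and leaving out uric acid library 1, 2 or 3 gave 0.0905, 0.0586 or 0.0297. For Rragd, in the same order, it was 0.0952, 0.192 or 0.117, and 0.124, 0.0923 or 0.0453. Of these fits, each call held only when uric acid library 3 was the one left out. Rragc held 68.7 ± 0.784% of the summed FPKM of the pair in untreated and 68 ± 0.184% in uric acid libraries (mean ± SD, n = 3), so the proportion of the paralogs differed by less than the spread between the untreated libraries. Rragc (ENSRNOG00000017426) lies on chromosome 5 from 141572536 to 141590781, and Rragd (ENSRNOG00000007331) on the same chromosome from 48224994 to 48260685.

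**Figure D3:**
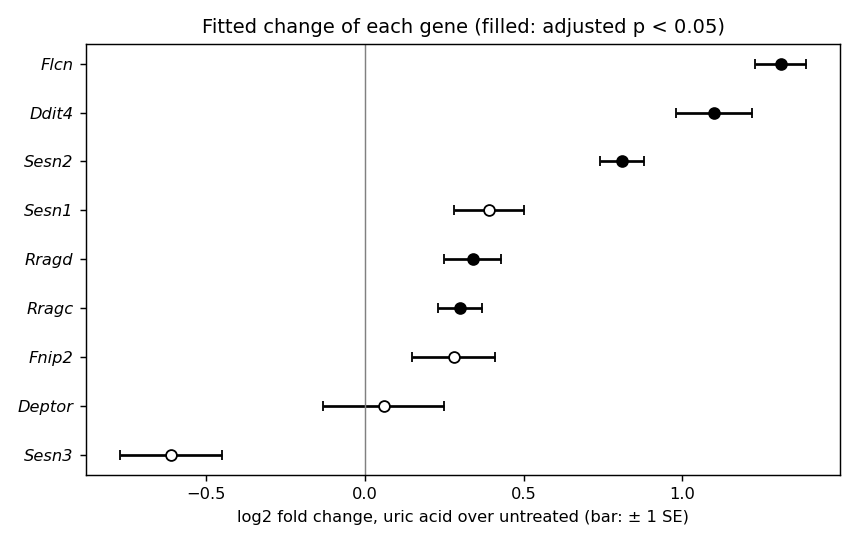
Fitted log2 fold change of uric acid over untreated (horizontal axis) for each gene, with bars of ± 1 SE from the edgeR fit and filled points where the adjusted p is under 0.05. Flcn, Ddit4 and Sesn2 stand at 1.31, 1.10 and 0.81, Rragd and Rragc near 0.3, and Sesn3 at -0.61.

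With 1 library left out, the number of the 9 genes called was 3 without untreated library 1 or 2 or uric acid library 1 or 2, 4 without untreated library 3, where Sesn3 passed, and 5 with uric acid library 3 removed. Flcn, Ddit4 and Sesn2 were called in each of these fits, with the highest adjusted p at 0.00186, 0.013 and 0.00753. Over all tested features, 994 were called with all libraries. The same fits called 364, 233 or 497 features without untreated library 1, 2 or 3. They called 310, 758 or 1180 without uric acid library 1, 2 or 3. Such fits rest on fewer residual degrees of freedom.

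**Figure D4:**
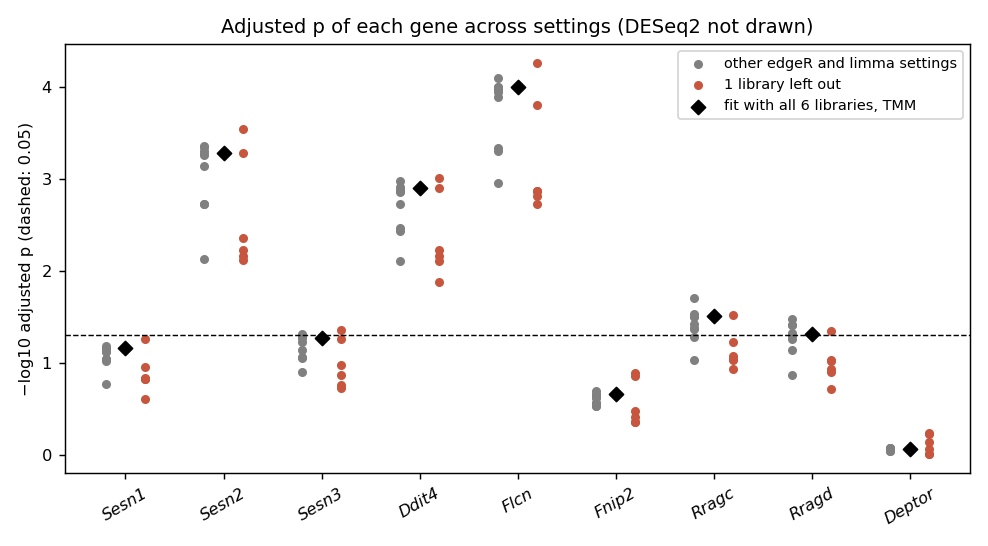
Adjusted p of each gene on a −log10 scale (vertical axis) in the fit with all 6 libraries (diamonds), with 1 library left out (red) and under the other edgeR and limma settings (grey); the dashed line is 0.05. Flcn, Ddit4 and Sesn2 lie above the line throughout, Rragc, Rragd and Sesn3 on both sides of it, and Sesn1, Fnip2 and Deptor below.

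The partner of RagC and RagD went the other way. Rraga, which encodes RagA, fell from 48.5, 46.4 and 45.2 FPKM to 35.3, 32.6 and 31.1 FPKM (log2 fold change -0.50 ± 0.07, edgeR adjusted p = 0.00463). Its groups did not overlap, and it was called with any 1 library left out. Rraga was the 1 gene called among 11 tested genes of the Rag, Ragulator and lysosomal scaffold list, where 7.98% of all tested features were called in either direction and the list's median log2 fold change was 0.16. The 5 Ragulator genes Lamtor1 to Lamtor5, which anchor the Rags to the lysosome, had log2 fold changes from 0.03 to 0.27 and none passed. Rragb was not analysed here.

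Most other genes that act on mTORC1 did not pass the test, nor did most of all tested features, of which 7.98% were called. Of 14 tested amino acid sensors and subunits of GATOR1, GATOR2 and KICSTOR, 2 rose and 0 fell (14.3% called, median log2 fold change -0.03). Itfg2, a KICSTOR subunit, was 5.7 ± 0.447 FPKM untreated and 8.93 ± 1.04 FPKM with uric acid (0.65 ± 0.12, edgeR adjusted p = 0.017). Nprl2, a GATOR1 subunit, was 7.92 ± 1.14 and 12.1 ± 0.787 FPKM (0.62 ± 0.13, 0.0264). Both were lost without untreated library 1 (0.0667 and 0.0736), untreated library 2 (0.0935 and 0.101) and uric acid library 1 (0.0611 and 0.0878), and Nprl2 also without uric acid library 2 (0.05, above the threshold before rounding). The other GATOR1 subunits did not pass: Nprl3 had a log2 fold change of 0.30 ± 0.10 (adjusted p = 0.107), with groups that did not overlap, and Depdc5 of -0.13 ± 0.10 (0.438). Of 12 other tested brakes on Rheb and mTORC1, among them the TSC complex and AMPK, 0 rose and 1 fell (8.33% called, median -0.03). DESeq2 called 1 of them higher and 1 lower. Akt1s1, the gene of PRAS40, was higher without overlap but missed the threshold (0.39 ± 0.11, edgeR adjusted p = 0.0668). Tsc2 (-0.13, 0.315) and Cab39 (-0.07, 0.49) were lower without overlap and did not pass. Prkag2, an AMPK gamma subunit, fell by 0.40 on the log2 scale (edgeR adjusted p = 0.0464). Its call held without uric acid library 2 (0.0363) but not when untreated library 1 (0.133), 2 (0.138) or 3 (0.11) or uric acid library 1 (0.13) or 3 (0.0815) was removed.

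Genes of the kinase complex itself did not pass the test. Of 11 tested genes of the mTOR complexes and their activators, 1 rose and 0 fell (9.09% called, near the 7.98% of all tested features, median -0.03). Mtor had a log2 fold change of -0.03 ± 0.08, the scaffold Rptor of -0.05 ± 0.09 and Rheb of 0.08 ± 0.08. Rhebl1, a Rheb paralog, was 6.99 ± 0.869 FPKM untreated and 14.1 ± 2.01 FPKM with uric acid (1.01 ± 0.15, edgeR adjusted p = 0.00583), and passed with any 1 library left out. Rheb itself was far more abundant, at 105 ± 4.5 and 111 ± 8.77 FPKM.

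Among 12 tested substrates and readers of mTORC1, 5 rose and 0 fell (41.7% called, where 7.98% of all tested features were). The median log2 fold change was 0.02. Eif4b, a translation initiation factor, was 84.3 ± 2.4 and 120 ± 3.43 FPKM (0.51 ± 0.06, edgeR adjusted p = 0.00197). Ulk1, the kinase that starts autophagy and is held back by mTORC1, rose by 0.64 ± 0.09 (0.00389). Maf1, a repressor of RNA polymerase III that mTORC1 inactivates, rose by 0.43 ± 0.08 (0.0129; 0.0508 and 0.067 without untreated libraries 1 and 2). Chosen for naming after their values were seen, the remaining calls were Pdcd4, an inhibitor of translation initiation, at 0.35 (0.0129; 0.0844 and 0.0612 without untreated library 2 and uric acid library 1) and Lpin1 at 0.61 (0.0309). Lpin1, a phosphatidate phosphatase, passed without uric acid library 2 and was lost without each of the other libraries. The S6 kinase genes Rps6kb1 and Rps6kb2 had log2 fold changes of -0.19 and -0.16 and did not pass. Removing untreated library 1, 2 or 3 left 3, 2 or 4 of these genes higher, and removing uric acid library 1, 2 or 3 left 3, 5 or 4.

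**Figure D5:**
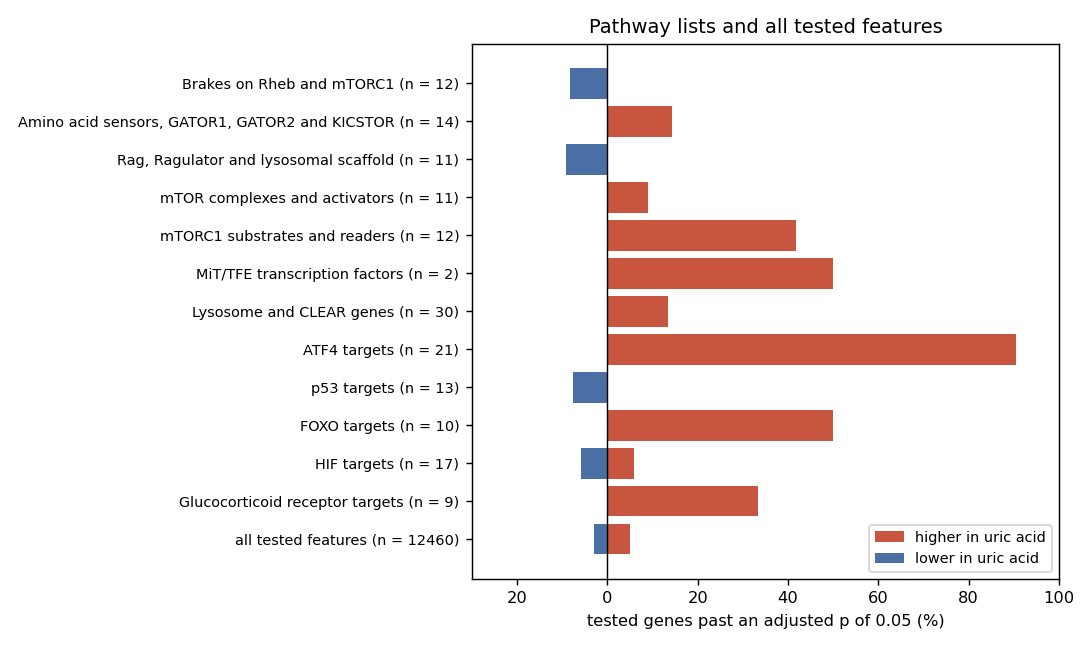
Percent of the tested genes of each pathway list, and of all 12460 tested features, that were past an adjusted p of 0.05, drawn to the right for higher and to the left for lower in uric acid. The ATF4 target list reaches 90.5%, the mTORC1 substrate list 41.7% and the list of other brakes on Rheb and mTORC1 8.33%, beside 7.98% of all features in both directions together.

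Flcn, Rragc and Rragd belong to the genes that TFEB and TFE3 are known to induce, and the wider lysosomal set was read beside them. Of the 2 tested factors, Tfe3 was 12.6 ± 1.38 FPKM untreated and 17.1 ± 0.0272 FPKM with uric acid (0.44 ± 0.10, edgeR adjusted p = 0.0272). Tfe3 missed the threshold with untreated library 1 (0.0982) or 3 (0.0833), or uric acid library 1 (0.0986), removed, and Tfeb had a log2 fold change of -0.20 ± 0.08 (adjusted p = 0.181). Of 30 tested lysosome and CLEAR genes, 4 rose and 0 fell (13.3% called, median log2 fold change 0.11). Gabarapl1, which builds autophagosomes, rose by 0.75 ± 0.08 (0.00133). Uvrag, a regulator of autophagosome maturation, rose by 0.40 (0.0165), but not with untreated library 2 (0.102) or 3 (0.0554), or uric acid library 1 (0.0698), removed. Wipi1, an autophagy protein that binds membrane lipid, rose by 0.47 (0.0176), but not with untreated library 1 (0.0609) or 2 (0.103), or uric acid library 1 (0.0732), removed, and it overlaps Arsg on the other strand. The other call, Ctsa, was at 0.29 (0.0359) and of the fits with 1 library left out passed only in that without uric acid library 3 (0.0454). Removing untreated library 1, 2 or 3 left 2, 1 or 2 of the lysosomal genes higher, and removing uric acid library 1, 2 or 3 left 1, 3 or 5. Genes that the deposited table annotates to the KEGG lysosome pathway gave 4 higher and 0 lower of 94 tested (4.26% called, below the 7.98% of all tested features). The 4 were Ctns, the lysosomal cystine exporter (0.89 ± 0.09, edgeR adjusted p = 0.00113), the sulfatase gene Arsg (0.95 ± 0.10, 0.000962), the cholesterol transporter gene Npc1 (0.32, 0.0334) and Ctsa. Ctns and Arsg passed with any 1 library left out, and Npc1 only in the fit without uric acid library 2 (0.0477).

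Other targets of factors known to induce sestrins or Ddit4 were listed, with earlier results of these data known. Whether ATF4, p53, FOXO factors, the glucocorticoid receptor or hypoxia-inducible factors acted on the genes here was not tested. ATF4, the factor of amino acid shortage, is known to induce Sesn2 and Ddit4. Of 21 tested targets of ATF4, 19 rose and 0 fell (90.5% called, median log2 fold change 1). Over all tested features, 4.99% were called higher and 2.99% lower. Asns (0.20, edgeR adjusted p = 0.224) and Aldh1l2 (0.10, 0.716) did not pass. Chac1 rose by 3.74 ± 0.15 (edgeR adjusted p = 5.68e-06), Slc7a1, a cationic amino acid transporter, by 1.59 ± 0.08 (1.96e-05) and Slc7a5, the leucine transporter, by 1.01 ± 0.06 (9.29e-05). Removing untreated library 1, 2 or 3 left 12, 12 or 16 higher, and removing uric acid library 1, 2 or 3 left 13, 18 or 19. Of 13 targets of p53, a known inducer of Sesn1 and Sesn2, 0 rose and 1 fell (7.69% called, near the 7.98% of all tested features). The 1 that fell was Ccng1, by 0.27 (edgeR adjusted p = 0.0403). That call held without uric acid library 2 (0.0395) but not when untreated library 1 (0.0815), 2 (0.157) or 3 (0.115) or uric acid library 1 (0.108) or 3 (0.0771) was removed.

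The FOXO list held 17 targets and factors, of which 10 were tested, among them the factor genes Foxo1, Foxo3 and Foxo4. Of these 10, 5 rose and 0 fell (50% called, where 7.98% of all tested features were, median log2 fold change 0.39). Ccng2, a cyclin of growth arrest, rose by 1.26 ± 0.14 (edgeR adjusted p = 0.00135), Gadd45a by 0.87 ± 0.13 (0.00654) and the factor gene Foxo4 by 0.59 ± 0.08 (0.00362). Foxo4 overlaps another listed feature on the same strand. The other calls were Cdkn1b at 0.37 (0.028) and Cited2 at 0.41 (0.0301). Without untreated library 1, 2 or 3 or uric acid library 1, both missed the threshold, at 0.098, 0.112, 0.0604 and 0.103 for Cdkn1b and 0.0587, 0.0688, 0.0564 and 0.108 for Cited2. The number of FOXO genes higher was 3 in each of these fits, and removing uric acid library 2 or 3 left 6 or 5. Of 9 glucocorticoid receptor targets 3 rose and 0 fell (33.3% called, median 0.22). They were Tsc22d3 by 0.90 ± 0.09 (edgeR adjusted p = 0.000716), Klf9 by 0.84 ± 0.15 (0.0115) and Dusp1 by 0.75 ± 0.14 (0.0145). Klf9 missed the threshold with untreated library 1 (0.0541) or 2 (0.0525), or uric acid library 1 (0.0595), removed. Dusp1 missed it without untreated library 2 (0.0776) and uric acid library 1 (0.0622). Removing untreated library 1, 2 or 3 left 2, 1 or 3 of the 9 higher, and removing uric acid library 1, 2 or 3 left 1, 3 or 3. In the fit without uric acid library 2, 1 of the 9 was also called lower. Of 17 targets and factors of hypoxia 1 rose and 1 fell (11.8% called, beside 7.98% of all tested features, median -0.12). They were Bnip3l by 0.34 (edgeR adjusted p = 0.0441) and P4ha1 by -0.47 (0.0498). The edgeR adjusted p without each library ranged from 0.0543 to 0.142 for Bnip3l and from 0.0602 to 0.185 for P4ha1. Neither passed with any 1 library left out. Other genes of this list were called without untreated library 1 (1 lower) and without uric acid library 3 (1 higher and 1 lower).

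The annotation carried by the deposited table gave a list that was not written for this work, though it was chosen after the table was seen. KEGG's mTOR signaling pathway held 7 of the 9 genes, and of its 112 other tested features 7 rose and 4 fell (9.82% called, near the 7.98% of all tested features, median log2 fold change -0.01). Negative regulation of TORC1 signaling held Sesn1, Sesn2, Sesn3 and Fnip2, and of its 9 other tested features Itfg2 rose and 0 fell. Positive regulation of TORC1 signaling held Flcn and Rragd, and of its 10 other tested features 2 rose and 1, Rraga, fell. Those that rose were Sik3 by 0.29 (0.0488) and Pip4p1 by 0.39 (0.0491); Sik3 passed only in the fit without uric acid library 2 (0.0201), and Pip4p1 in none with 1 library left out (0.0509 to 0.159). Cellular response to amino acid starvation held the 3 sestrins and Rragc, and of its 34 other tested features 5 rose (Atf3, Atf4, Slc38a2, Itfg2 and Nprl2) and 1, Rraga, fell (median -0.02). Atf4 itself rose by 1.18 ± 0.09 (edgeR adjusted p = 0.00021).

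Profiles most like those of the genes with the largest fitted increase and decrease were found by Pearson's correlation of log2 normalised counts over the 6 libraries, as a description. For Flcn these were Uap1l1 (r = 0.9990), Eif4b (0.9990) and Hbp1 (0.9988), whose log2 fold changes were 0.55, 0.51 and 1.12 and which all passed the test. For Sesn3 these were Son (r = 0.9975), Bclaf1 (0.9968) and Ints6l (0.9956), at -0.41, -0.31 and -0.18. Son, a gene of a splicing cofactor, passed at an edgeR adjusted p of 0.0447, but not without untreated library 1 (0.146) or 2 (0.161) or uric acid library 1 (0.123) or 2 (0.0755), whereas Bclaf1 (0.0591) and Ints6l (0.272) missed the threshold. The 6 points of each correlation share the libraries and the group difference. Each r was also picked as 1 of the 3 highest over the features searched, so a value near 1 supports nothing.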

How the data were processed

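Per the labels' protocols, polyadenylated RNA from 6 samples gave dUTP-marked libraries, sequenced as pairs of 150 bases. Tools named without a role in the submitters' processing notes are StringTie 1.3.4d, HISAT2 2.0.4, cutadapt 1.9, edgeR and DESeq2. The genome build and the strand used for counting are not given in the sources used here. The deposited table holds FPKM, which the authors scaled to transcript length and library total, and deposited estimated counts. The latter behave as aligned bases divided by 75 and rounded up. Of 2607 small-RNA values of under 300 bases at that divisor, 64.7% were whole numbers of bases (tolerance 0.05). At divisors of 50, 100 and 125, it was 27.9% of 2999, 25.4% of 2319 and 24.3% of 2087 values. A full pair thus adds up to 4, and counts divided by 4 were an alternative.

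Of 19289 features, 12460 averaged 1 FPKM or more and were tested in edgeR 4.0.16 (R 4.3.3; TMM factors 0.992 to 1.01, no covariate). The median standard error was 0.113 on the log2 scale and the smallest change called 0.208. An exact permutation test of 3 libraries against 3 cannot go below 0.1, so none was used. On simulated data for this contrast (12460 features, 200 changed), 44.8% of changes of 0.5, 89.6% of 1 and 100% of 2 on the log2 scale were recovered, with 11 false calls.

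The genes and the 12 pathway lists (193 entries, 180 matched, older symbols looked up in RefSeq) were chosen with earlier results of these data known. Named beside the 10 genes were, by rule, up to 3 called genes of each list by smallest p and the 3 features most like the genes of largest increase and decrease. Genes named outside this rule, as further members of a list or complex, were chosen after their values were seen. Alternatives were other scalings, DESeq2 1.42.0, limma 3.58.1 on log2(FPKM + 1) and log2(FPKM + 0.1), other filters (mean FPKM over 0, or 5 and more), the replicate number as a block, and each library left out.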

Additional observations from a re-analysis of the deposited data

How the results depend on the processing

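Flcn, Ddit4 and Sesn2 were called in 16 of 16 alternatives, with log2 fold changes from 1.24 to 1.36, 0.99 to 1.19 and 0.77 to 0.88. Rragc was called in 9 and Rragd in 8 of 16, Sesn1 in 1 and Sesn3 in 3 of 15, and Fnip2 and Deptor in 0 of 16. Each of the 9 genes kept its sign in these alternatives except Deptor, which turned to -0.10 without untreated library 3 and -0.02 without uric acid library 3, in a range up to 0.22. Over all features, 994 were called, 622 higher and 372 lower. With DESeq2 the counts were 1765, 972 and 793 (7 of the 9 genes), and with features of a mean FPKM above 0 they were 735 in all, with 3 of the 9. With 1 library left out they ranged from 233 to 1180 in all, 166 to 711 higher and 67 to 469 lower, 3 to 5 of the 9 genes, and 22 to 44 of the pathway list genes (45 with all libraries). The cause of these shifts was not tested. With 1 library left out, the mean share of Sesn2 was 85.6 to 86.8% untreated and 91.5 to 92% with uric acid. That of Rragc was 68.2 to 69% and 67.9 to 68.1%. Leaving out 1 of 3 libraries cannot move a mean by as much as 1 SD, so these small shifts do not test how stable the shares are.

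With the replicate number as a block 322 features were called, 223 higher and 99 lower, 320 of them among the 994, with 3 of the 9 genes and 26 pathway list genes. Rragc (0.093) and Rragd (0.134) lost their calls there. Deviations of same-numbered libraries from their group means correlated at 0.0684, -0.0492 and -0.19 over 12460 features, and none was most like its own number. With only 3 libraries centred per group, these values cannot decide whether the samples were paired. Sesn3 (319 to 946 estimated counts) had an SE of 0.16, above the median of all tested features. Sesn1 (819 to 1034) had an SE of 0.11 and Deptor (600 to 1226) of 0.19, so the SE did not follow depth alone.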
